A study of Rattus norvegicus with 6 samples.

Results

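A set of 10 transcription factor and cofactor genes of the hair cell (HC) was followed in the vestibular epithelium of control and IDPN-exposed rats. They were chosen by name, as genes known for building and keeping the HC identity, with earlier results of these data known. Of the 10 genes, Atoh1, Pou4f3, Gfi1, Lhx3, Barhl1, Isl1, Eya1, Rfx3 and Ikzf2 had a row in the count table, 9 of its 32883 genes. Insm1 had no row under that symbol and was not analysed here.

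The 6 animals were male Long-Evans rats, described as adults in the study's methods. The 3 rats of the IDPN-4wk group received 3,3'-iminodipropionitrile (IDPN), which is toxic to vestibular HCs, at 20 mM in their drinking water for 4 weeks, and the 3 control rats had plain water. Both utricles and all 6 cristae of a rat were pooled, so a library stands for an animal. RNA was amplified from its polyadenylated end and sequenced in bulk, with all libraries carrying the same batch label. The animal codes of the 3 exposed rats share a prefix that no control has, and if it marks a cage or litter, that and the exposure cannot be told apart.

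HCs arise when the basic helix-loop-helix factor ATOH1 is switched on in a sensory progenitor. ATOH1 then acts through POU4F3 and the zinc finger repressor GFI1, which HCs need to differentiate and survive. LIM homeodomain factors (LHX3, ISL1) and BARHL1 act in differentiating and mature HCs, EYA1 works earlier, in the sensory primordium, RFX3 serves ciliary genes and the zinc finger factor IKZF2 is known for outer HCs of the cochlea.

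Depth ranged from 13358678 to 18561991 counts per library, and 14352 genes passed the filter on low counts, all 9 transcription factor genes among them. Values are CPM, counts per 1000000 counts of the library after TMM scaling, and a count of 0 allows up to 3 counts, or 0.155 to 0.216 CPM. Genes were called downregulated or upregulated when the adjusted p (Padj) of the edgeR quasi-likelihood test was under 0.05 and the fold change over 1.5, which is 0.585 on the log2 scale. HC markers were present in every library: the summed level of 27 HC function genes (stereocilia, transduction and synapse genes) ranged over the libraries from 4924 to 5229 CPM in control rats and from 2663 to 3398 CPM in exposed rats. In bulk RNA, fewer HCs and less RNA per HC cannot be told apart, and this holds for every value below. The study counted HCs in other rats with this exposure and found significantly fewer only in the centre of the crista. It calculated a small maximal loss of HCs for the sequenced samples. It also reported less label per HC for several HC genes, none of them among the 9 followed here. The part of HC loss in the values below was not tested.

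Among the 9 genes, Lhx3, Isl1 and Atoh1 were downregulated in IDPN-4wk rats, to 32.9%, 62.8% and 52.0% of the control mean. These 3 of 9 compare with 6.62% of all tested genes called downregulated. Pou4f3, at 70.3% of control, passed the Padj threshold but not that of the fold change, so that 4 of the 9 genes were lower by Padj alone, against 11.5% of all tested genes. Barhl1, at 60.6%, passed the fold change threshold but not that of Padj. The other 4 genes, Rfx3, Eya1, Gfi1 and Ikzf2, passed neither threshold. None of the 9 was upregulated by edgeR, DESeq2 or limma-voom, against 3.09% of all tested genes by edgeR, and 0 had a higher level with an unadjusted p under 0.05. The log2-Fold change was negative for 8 of the 9 genes, as for 47.2% of all tested genes, and its median was -0.51, against 0.02 over all tested genes. In 6 genes (Lhx3, Atoh1, Barhl1, Isl1, Pou4f3 and Rfx3) every IDPN-4wk library lay below every control library, a pattern seen in 19.3% of all tested genes.

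The start regions of the 3 downregulated genes are shown, as the stretch in which the factors that control them could meet the gene. Each runs from 250 bases before to 50 bases after the gene's start in the RefSeq annotation of build GRCr8, 5′ to 3′ on the gene's strand. Atoh1 is at chr4:95241683-95241982 on the plus strand, Lhx3 at chr3:29432588-29432887 on the minus strand and Isl1 at chr2:49823393-49823692 on the minus strand. Capitals mark the motif matches described after the sequences.
Lhx3: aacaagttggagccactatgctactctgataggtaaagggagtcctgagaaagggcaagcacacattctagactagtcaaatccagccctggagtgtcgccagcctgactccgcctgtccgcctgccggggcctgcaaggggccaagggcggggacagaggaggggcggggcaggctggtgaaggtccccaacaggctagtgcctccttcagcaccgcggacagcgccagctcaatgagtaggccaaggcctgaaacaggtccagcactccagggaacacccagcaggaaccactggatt
Isl1: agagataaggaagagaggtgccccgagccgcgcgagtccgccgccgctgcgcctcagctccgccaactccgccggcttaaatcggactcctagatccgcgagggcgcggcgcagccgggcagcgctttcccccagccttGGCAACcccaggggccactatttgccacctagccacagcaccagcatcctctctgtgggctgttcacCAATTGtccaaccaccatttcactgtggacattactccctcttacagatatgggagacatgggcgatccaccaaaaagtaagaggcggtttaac
Atoh1: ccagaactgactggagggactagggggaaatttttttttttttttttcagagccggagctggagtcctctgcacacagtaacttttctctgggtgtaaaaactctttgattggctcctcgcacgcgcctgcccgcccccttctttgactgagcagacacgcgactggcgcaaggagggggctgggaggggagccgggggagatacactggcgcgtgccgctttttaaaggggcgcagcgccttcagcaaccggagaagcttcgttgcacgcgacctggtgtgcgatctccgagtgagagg

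5 motifs were searched on both strands: the E-box CANNTG, its form CAGCTG that bHLH factors such as ATOH1 can bind, TAATTA of homeodomain factors, GTTGCC of the RFX X-box and AAATCAC of GFI1. CAGCTG is contained in CANNTG, so every match of the former is also one of the latter. Windows were at hand for 7 of the 10 genes: Atoh1, Pou4f3, Gfi1, Lhx3, Isl1, Rfx3 and Ikzf2. The printed Isl1 window held an X-box match on the strand opposite to the one printed (GGCAAC as printed) and an E-box (CAATTG), and the Lhx3 and Atoh1 windows held none of the 5. CANNTG was in 3 of the 7 windows (Pou4f3, Isl1 and Ikzf2) and in 72.1% of all RefSeq windows of that length, and CAGCTG was in 1 (Ikzf2) and in 15.1% of all. GTTGCC was in 2 of the 7 (Isl1 and Rfx3) and in 12.2% of all windows. TAATTA and AAATCAC were in 0 of the 7 and in 5.36% and 3.38% of all windows. A match is only the presence of these letters, and no match says nothing of sites outside the window.

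**Figure D1:**
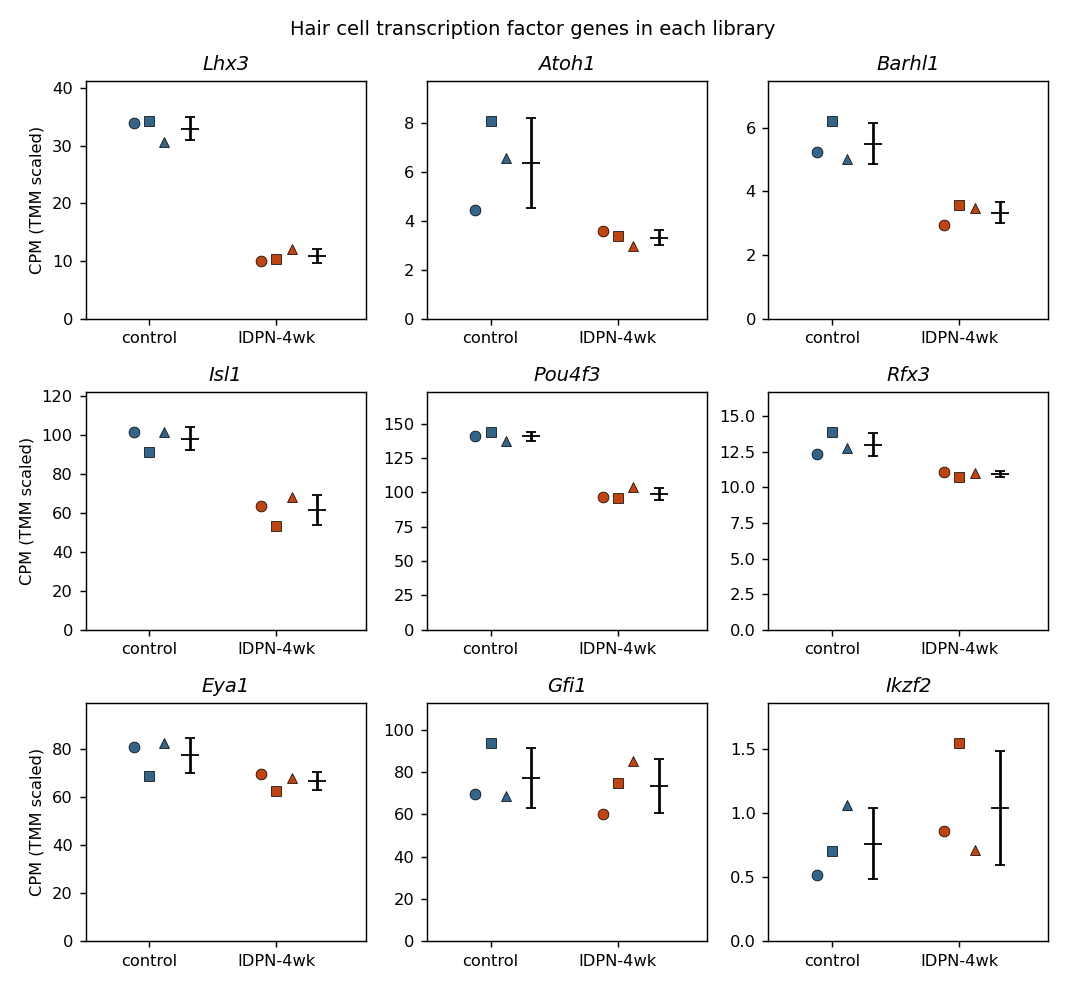
Level of each HC transcription factor gene in every library, in CPM after TMM scaling on a linear axis from 0, with blue for control and red for IDPN-4wk libraries and circles, squares and triangles for replicates 1, 2 and 3. Crosses with bars are the mean and SD (n = 3), and the red points lie below all blue points in 6 panels, and for Lhx3 the lowest control library had 30.6 CPM and the highest IDPN-4wk library 12.2 CPM.

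Among the factors at the start of the HC programme, Atoh1 (ENSRNOG00000006383) was at 4.45, 8.10 and 6.58 CPM in the control libraries and at 3.59, 3.40 and 2.96 CPM in the IDPN-4wk libraries. The groups did not overlap, but the controls spread widely, with replicate 1 close to the highest exposed library. Atoh1 fell from 6.38 ± 1.83 to 3.32 ± 0.325 CPM (SD, n = 3), a log2-Fold change of -0.94 (SE 0.27, 95% interval -1.52 to -0.35, edgeR Padj = 0.0308). Behind these values were 46 to 116 counts per library. The call rested on most libraries being present: it held in 1 of the 6 fits that left out a library, the fit without control replicate 1. The log2-Fold change in these fits ran from -1.14 to -0.73 and the edgeR Padj from 0.0136 to 0.126, the latter without control replicate 2. Padj was 0.0841 without control replicate 3, and 0.0641, 0.0722 and 0.0681 without IDPN-4wk replicates 1, 2 and 3.

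Pou4f3 (ENSRNOG00000018842), a POU homeodomain factor that mature HCs need to stay alive, was at 141, 144 and 138 CPM in control libraries. In IDPN-4wk libraries it was at 96.6, 96.2 and 104 CPM. The 2 groups were tight and far apart. The means were 141 ± 3.36 and 99.0 ± 4.54 CPM (SD, n = 3), a log2-Fold change of -0.51 (SE 0.07, 95% interval -0.66 to -0.36, edgeR Padj = 0.000601). The estimate lay short of the fold change threshold, which the interval includes.

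Gfi1 (ENSRNOG00000002042), the zinc finger repressor that acts beside POU4F3, had 69.5, 93.9 and 68.7 CPM in control libraries and 60.1, 74.8 and 85.4 CPM in IDPN-4wk libraries. These values were interleaved, the highest being a control and the lowest an exposed library. Its means were 77.4 ± 14.4 and 73.4 ± 12.7 CPM (SD, n = 3). The log2-Fold change of -0.07 had a 95% interval from -0.39 to 0.24 (SE 0.14, edgeR Padj = 0.759), which leaves out a change of 1.5-fold either way. Its sign turned when libraries were scaled by size alone (0.035), without control replicate 2 (0.088) or without IDPN-4wk replicate 1 (0.043).

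Among the homeodomain factors, Lhx3 (ENSRNOG00000018427) had the largest decrease of the 9 genes. LHX3 is a LIM homeodomain protein found in HCs of the inner ear and best known from motor neurons and the pituitary. The control libraries had 33.9, 34.4 and 30.6 CPM and the IDPN-4wk libraries 9.99, 10.4 and 12.2 CPM. All 3 exposed libraries were under the lowest control by more than the spread within either group. Lhx3 fell from 33.0 ± 2.03 to 10.9 ± 1.15 CPM (SD, n = 3), a log2-Fold change of -1.60 (SE 0.12, 95% interval -1.87 to -1.33, edgeR Padj = 2.67e-05). By p it ranked 34 of the 14352 genes tested. Lhx3 was called downregulated in every alternative fit that was run, those that left out a library included, where its log2-Fold change ran from -1.70 to -1.56.

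Isl1 (ENSRNOG00000012556), another LIM homeodomain gene, used by sensory progenitors, HCs and the neurons of the vestibular ganglion, was at 101, 91.4 and 102 CPM in control libraries. In IDPN-4wk libraries it was at 63.4, 53.1 and 68.3 CPM. No exposed library reached the lowest control. Isl1 fell from 98.1 ± 5.85 to 61.6 ± 7.72 CPM (SD, n = 3), a log2-Fold change of -0.67 (SE 0.10, 95% interval -0.89 to -0.46, edgeR Padj = 0.000984). Without IDPN-4wk replicate 2 the log2-Fold change was -0.58, short of the fold change threshold, with an edgeR Padj of 0.00329. Scaling by library size alone also left it short, at -0.57 (edgeR Padj = 0.00228).

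Barhl1 (ENSRNOG00000013209), a BarH-like homeobox gene that cochlear HCs need for long-term survival, had 5.23, 6.22 and 5.02 CPM in control libraries. The IDPN-4wk libraries had 2.95, 3.56 and 3.47 CPM. The groups were apart, at 41 to 89 counts per library. Means were 5.49 ± 0.638 and 3.33 ± 0.331 CPM (SD, n = 3), a log2-Fold change of -0.72 (SE 0.23, 95% interval -1.22 to -0.21, edgeR Padj = 0.0509). It was called with DESeq2 size factors in edgeR (Padj = 0.0485) and with limma-voom (Padj = 0.0492), but not in the other alternatives. Padj was 0.0557 with DESeq2 and 0.0746 with scaling by library size alone in edgeR, and ran from 0.0732 to 0.158 in the 6 edgeR fits that left out a library.

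**Figure D2:**
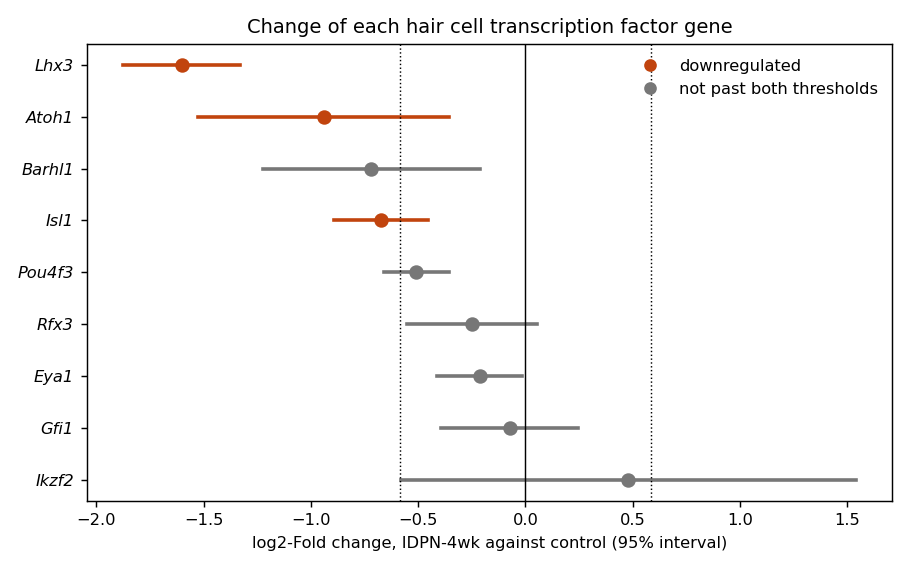
Log2-Fold change of each gene between IDPN-4wk and control rats (n = 3 each) from the edgeR fit, with horizontal lines for the 95% interval and dotted lines at a fold change of 1.5 either way. Lhx3, at -1.60, has an interval wholly beyond the dotted line, while those of Atoh1, Barhl1, Isl1 and Pou4f3 cross it and Gfi1 is centred near 0.

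Of the other regulators, Eya1 (ENSRNOG00000007590), which encodes a phosphatase and transcriptional cofactor, had 80.7, 68.9 and 82.5 CPM in control and 69.8, 62.6 and 67.8 CPM in IDPN-4wk libraries. Control replicate 2 lay below the highest exposed library, so the groups overlapped. Means were 77.4 ± 7.42 and 66.7 ± 3.69 CPM (SD, n = 3). The log2-Fold change was -0.21 (SE 0.09, 95% interval -0.41 to -0.02), with an unadjusted p of 0.0365 and an edgeR Padj of 0.122.

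Rfx3 (ENSRNOG00000014486), a winged-helix factor of ciliary genes, had 12.3, 13.9 and 12.7 CPM in control and 11.1, 10.7 and 11.0 CPM in IDPN-4wk libraries. Every exposed library was below every control, by a small margin. The mean went from 13.0 ± 0.817 to 10.9 ± 0.183 CPM (SD, n = 3), a log2-Fold change of -0.25 (SE 0.14, 95% interval -0.55 to 0.06, edgeR Padj = 0.240).

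Ikzf2 (ENSRNOG00000027430), which encodes Helios, was close to the limit of detection in this tissue. It had 8, 10 and 15 counts in control libraries, or 0.516, 0.698 and 1.06 CPM. It had 12, 30 and 11 counts in IDPN-4wk libraries, or 0.862, 1.55 and 0.708 CPM. The single library with 30 counts, IDPN-4wk replicate 2, stood above the rest. The log2-Fold change was 0.48 (SE 0.48, 95% interval -0.58 to 1.54, edgeR Padj = 0.529), and 0.05 without that library. The interval spans changes in both directions.

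The genes were next set against one another within each library, as log2 counts per count of Pou4f3, a measure that needs no scaling between libraries. The measure was added after the data had been seen. Lhx3 stood at -2.10 ± 0.0602 in control and -3.19 ± 0.0878 in IDPN-4wk rats (SD, n = 3), a difference of -1.10. Lhx3 was thus lower beside Pou4f3 in all 3 exposed libraries (exact permutation test, two-sided, p = 0.1, the smallest that 3 against 3 allows, adjusted p = 0.267 over 8 genes). It was the only one of the 8 whose libraries were all lower, against 4.26% of all genes compared in this way. The IDPN-4wk minus control difference was -0.39 for Atoh1, -0.21 for Barhl1 and -0.17 for Isl1, and in all 3 genes the groups overlapped. Rfx3 (0.26) and Eya1 (0.30) had every exposed library above every control, as did 68.8% of all genes compared. Gfi1 (0.43) and Ikzf2 (0.94) were higher on average with overlapping groups.

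**Figure D3:**
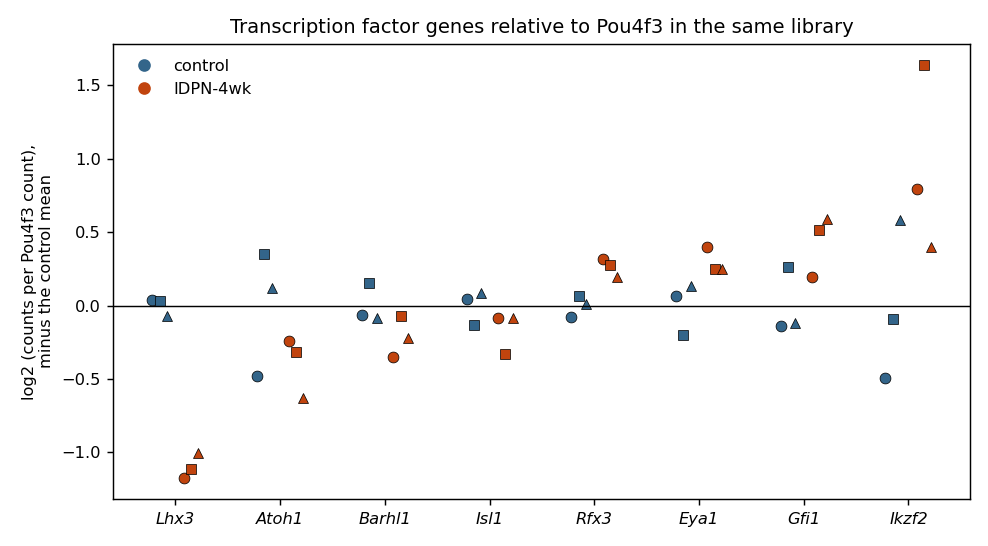
Counts of each gene per count of Pou4f3 in the same library, on a log2 scale and shown minus the control mean of that gene, with blue for control, red for IDPN-4wk and a symbol for each replicate. The red Lhx3 points sit about the difference of -1.10 below the control mean, apart from the blue ones, while for Atoh1, Barhl1, Isl1, Gfi1 and Ikzf2 red and blue points overlap.

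A comparison with HC genes in general used the median log2 CPM of the 27 HC function genes in each library as the reference. That reference was 5.76, 6.13 and 5.90 in control libraries and 4.71, 4.67 and 4.89 in IDPN-4wk libraries. It was lower in every exposed library, and 89.3% of all tested genes were then higher against it with groups that did not overlap. Pou4f3 (by 0.66 on the log2 scale), Gfi1 (1.10), Barhl1 (0.47), Isl1 (0.50), Eya1 (0.96), Rfx3 (0.93) and Ikzf2 (1.55) were among these. Lhx3 was lower even against the 27 genes, by a difference of -0.42 with no overlap, as were 1.22% of all tested genes. Atoh1 differed by 0.29 with overlapping groups. The exact permutation p was 0.1 for these 8 genes and 0.3 for Atoh1, and 0.112 and 0.3 after adjustment over the 9. With the HC function genes that the study names left out of the reference, Pou4f3, Barhl1 and Isl1 overlapped between the groups, while Gfi1, Eya1, Rfx3 and Ikzf2 stayed higher, as were 77.1% of all tested genes, and Lhx3 lower, as were 1.24%.

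The choice of reference set how many genes stood apart from HC genes. With Myo7a, which encodes the myosin commonly used to label HCs, as the only reference, 4 genes had groups that did not overlap. Lhx3 was lower (-0.95), as were 3.24% of all tested genes. Gfi1 (0.56), Eya1 (0.43) and Rfx3 (0.40) were higher, as were 72.6%. The groups overlapped for Atoh1 (-0.24), Pou4f3 (0.13), Barhl1 (-0.060) and Isl1 (-0.036), and for Ikzf2.

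Across the 6 libraries, the closest pair was Pou4f3 and Lhx3, with a Pearson r of 0.998 between their log2 CPM. The r of their deviations from the group means was 0.957. The pair was picked as the highest of all pairs of the 9 genes, and its r was the highest by both measures. Gfi1 and Barhl1 had an r of 0.474 over all libraries and 0.936 within groups. Isl1 and Eya1 had 0.868 and 0.751, and Atoh1 and Rfx3 0.957 and 0.828. Other pairs went apart or opposite ways within groups: Atoh1 and Pou4f3 had 0.839 over all libraries and -0.11 within groups, Barhl1 and Isl1 0.833 and -0.52, Gfi1 and Eya1 -0.36 and -0.75, and Barhl1 and Eya1 0.500 and -0.90. These values are descriptions over 6 libraries that share depth and scaling. Control replicate 2 was the highest control for 6 of the 9 genes (Atoh1, Pou4f3, Gfi1, Lhx3, Barhl1 and Rfx3) and the lowest for Isl1 and Eya1, and it also had the highest HC reference. The part of HC content in these patterns was not tested.

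Over the same 6 libraries, the tested genes most like Atoh1 were Npc2 (r = 0.995), Fggy (0.992) and Golim4 (0.991), with log2-Fold changes of -0.21, -0.45 and -0.39. Those most like Pou4f3 were Ric3, Gipc3 and Fancd2, all with r = 0.999 and with log2-Fold changes of -0.96, -0.74 and -2.31. The 9 transcription factor genes were left out of this search. It kept only the highest r among all other tested genes over 6 libraries, so high values follow from the selection. The r also includes the difference between the groups, and a link between these genes was not tested.

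Of 25 paralogs of the 10 genes, 12 were tested, 4 with a lower and 8 with a higher level, and the median log2-Fold change was 0.15. Eya4, a relative of Eya1 whose mutation causes deafness, was the only one called: it fell from 11.9 ± 0.921 to 7.52 ± 0.335 CPM (SD, n = 3; log2-Fold change -0.66, SE 0.16, edgeR Padj = 0.0140). The Eya4 call was lost without control replicate 1 and with scaling by library size alone, and in both of these fits 1 paralog was called upregulated. With upper quartile scaling and with limma-voom, 1 paralog was called upregulated beside 1 downregulated. Pou4f1, Pou4f2, Lhx2, Lhx4 and Barhl2 had 0 counts in all libraries, and 10 of the 25 had at most 3 counts in every library. The relatives at 0 counts include the closest ones of Pou4f3, Lhx3 and Barhl1, with which reads could have been shared.

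Partners and cofactors, such as the E proteins that pair with ATOH1, the LDB adaptors of LIM factors and the corepressors of GFI1, numbered 21 genes in 22 rows, Rcor1 having 2. 1 row was downregulated and 2 were upregulated, and the median was 0.11. Ldb2 fell from 13.3 ± 1.84 to 7.73 ± 1.09 CPM (log2-Fold change -0.79, edgeR Padj = 0.0104). Ldb1, the other LDB adaptor, rose from 10.8 ± 2.61 to 16.5 ± 1.04 CPM (0.61, edgeR Padj = 0.0319). Kdm1a, the histone demethylase of GFI1 complexes, rose from 12.9 ± 2.52 to 19.4 ± 1.46 CPM (0.59, edgeR Padj = 0.0262; SD, n = 3 throughout). Of 13 other fits (other scalings, filters and tools, and each library left out, glmTreat aside), Ldb2 was called in 13, Ldb1 in 9 and Kdm1a in 8, the latter being lost with DESeq2 and with its size factors in edgeR. Leaving out control replicate 1, IDPN-4wk replicate 1 or IDPN-4wk replicate 2 ended the calls of both Ldb1 and Kdm1a, and leaving out control replicate 2 ended that of Ldb1.

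Other transcription factors of the inner ear gave 17 tested genes of 19, with a median of -0.07. Gata3, a zinc finger gene whose loss causes deafness, fell from 24.1 ± 0.649 to 12.4 ± 2.78 CPM (log2-Fold change -0.95, edgeR Padj = 0.00225). Thrb, a thyroid hormone receptor gene, fell from 22.4 ± 1.02 to 13.8 ± 0.512 CPM (-0.69, edgeR Padj = 0.00223), a call lost with scaling by library size alone. Casz1 rose from 8.75 ± 0.835 to 15.9 ± 1.93 CPM (0.87, edgeR Padj = 0.00315; SD, n = 3 throughout). Of the Notch effector repressors, which oppose Atoh1, 0 of 4 tested were called by edgeR, DESeq2 or limma-voom and 2 had an unadjusted p under 0.05. Of these 4, 3 were lower, and the median was -0.27. The one with the smallest p was Hes1, at 30.8 ± 1.16 CPM without and 39.4 ± 7.09 CPM with IDPN (0.36, edgeR Padj = 0.0783). The other was Hey2, named after its values were seen, which was lower with groups that did not overlap, at 11.3 ± 1.61 and 7.93 ± 1.78 CPM (-0.51, edgeR Padj = 0.0969). Without IDPN-4wk replicate 3, 1 of the 4 was called downregulated by edgeR. With the glmTreat test of edgeR against the 1.5-fold threshold itself, none of Eya4, Ldb2, Ldb1, Kdm1a, Gata3, Thrb and Casz1 was called.

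**Figure D4:**
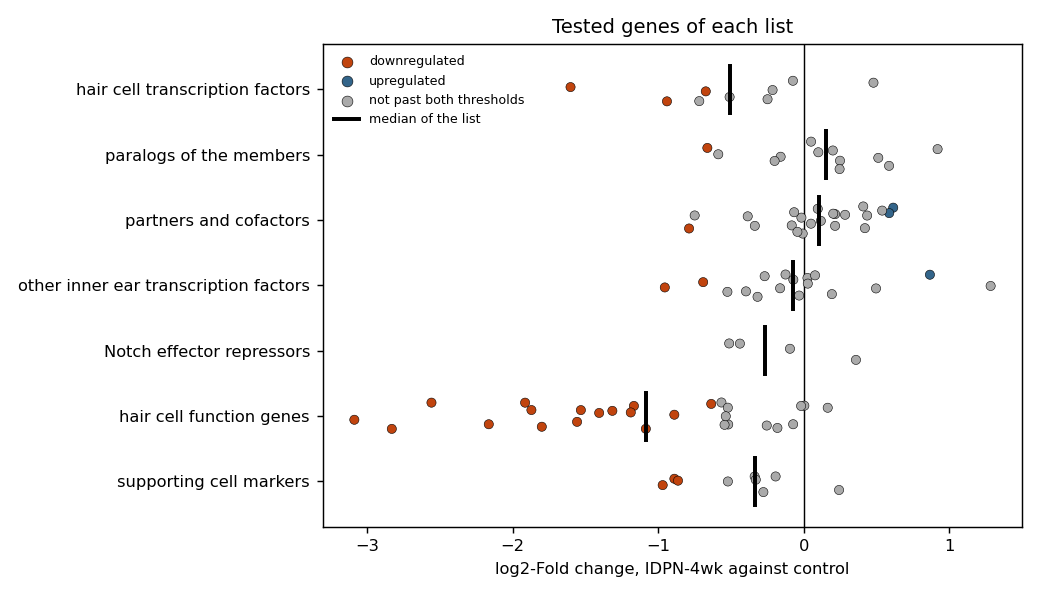
Log2-Fold change (IDPN-4wk against control, n = 3 each) of every tested gene in the list of HC transcription factors and 6 other lists, each point a gene with its height within a row spread only to separate points. The black bar is the median, at -0.51 for the HC transcription factors, 0.15 for their paralogs and -1.08 for HC function genes.

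Genes known to be linked to the factors were followed as separate lists. Of 9 tested genes linked to ATOH1, Dll1, the Notch ligand of nascent HCs, was the one downregulated, from 35.1 ± 4.05 to 18.7 ± 0.607 CPM (SD, n = 3; log2-Fold change -0.91, edgeR Padj = 0.000411). The median of these 9 was -0.08, and leaving out a library gave up to 3 downregulated genes in this list (3 without control replicate 1 or IDPN-4wk replicate 3, 2 without control replicate 3 or IDPN-4wk replicate 1). All 5 tested ciliary genes linked to RFX factors were lower, with a median of -0.34, and Dnah9, an axonemal dynein gene, was downregulated from 28.3 ± 5.96 to 10.7 ± 2.41 CPM (-1.41, edgeR Padj = 0.000663), joined by 1 more of them without IDPN-4wk replicate 3. Of 4 genes linked to IKZF2, 2 passed the filter, and Ocm2, the row of oncomodulin, was downregulated from 54.4 ± 6.13 to 29.4 ± 2.15 CPM (-0.89, edgeR Padj = 0.000279). With glmTreat, Dnah9 was still called, and Dll1 (edgeR Padj = 0.0585) and Ocm2 (edgeR Padj = 0.0527) were not.

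Of the 27 HC function genes tested, 25 were lower and 16 were downregulated, beside 3 of the 9 transcription factor genes, and their log2-Fold changes ran from -3.09 to 0.16 around a median of -1.08. The 4 with the smallest p were Slc17a8 (-2.56), Calb2 (-2.16), Myo3b (-1.91) and Atp2b2 (-1.87), which code for a vesicular glutamate transporter, calretinin, an unconventional myosin and a calcium pump. Lhx3 lay within the range of this list, beyond its median. The other 8 transcription factor genes had smaller decreases than the median or, for Ikzf2, none. The list of HC function genes was chosen with earlier results of these data known. It includes genes that the study reports as downregulated, so its median is no neutral yardstick.

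Several of the 9 genes are also used by other cells of the tissue, so the summed level of marker lists is given. A sum is weighted to the most abundant genes. The median log2-Fold change was -0.34 for supporting cell, -0.30 for neuron, -0.39 for Schwann cell and -0.66 for dark cell markers tested. It was 0.22 for macrophage, -0.03 for stroma, -0.28 for endothelium and -0.43 for T cell markers. Supporting cell markers were at 10506 to 11519 CPM in the control libraries against 5902 to 7186 CPM in the exposed ones, with 3 of 9 downregulated (Gjb6, -0.86, Otog, -0.97, and Otogl, -0.89). Neuron markers, which matter for Isl1, were at 104 to 110 CPM against 66.4 to 72.3 CPM, with Pou4f1, a defining gene of ganglion neurons, at 0 counts in all libraries. Of 9 neuron markers tested, Gap43 (-4.43) and Snap25 (-1.44) were downregulated and Prph (2.57) and Nefh (2.05) upregulated. Schwann cell markers were at 7737 to 9886 against 5346 to 8025 CPM, with 1 of 8 downregulated (Pmp22, -0.59), and dark cell markers at 1467 to 1896 against 924 to 1141 CPM, with 3 of 5 downregulated (Kcnq1, -1.87, Slc12a2, -1.06, and Atp1b2, -0.60). Macrophage markers were at 79.8 to 103 against 67.8 to 125 CPM, with 1 of 6 upregulated (C1qb, 0.71), and stroma markers at 858 to 1039 against 818 to 922 CPM, with Lum (-1.42) down and Col1a1 (0.74) up of 6. Endothelium markers had 0 of 3 called by edgeR, DESeq2 or limma-voom, 2 with an unadjusted p under 0.05 (Tek, -0.36), at 206 to 253 against 174 to 210 CPM. T cell markers had 0 of 3 called by edgeR and 1 by both DESeq2 and limma-voom, 2 with an unadjusted p under 0.05 (Cd4, -0.95), at 17.0 to 20.6 against 13.8 to 16.1 CPM. Some of these marker calls were lost when a library was left out: Nefh without control replicate 2 or 3 or IDPN-4wk replicate 2, Pmp22 without control replicate 1 or 3 or IDPN-4wk replicate 2, Atp1b2 without control replicate 2 or IDPN-4wk replicate 1 or 3, and C1qb without control replicate 3 or IDPN-4wk replicate 1. Other calls were gained. Of the Schwann cell markers, 4 were downregulated without IDPN-4wk replicate 3, 3 with limma-voom, and 2 without control replicate 2 or IDPN-4wk replicate 1. Of the T cell markers, 1 was called higher and 1 lower by edgeR without IDPN-4wk replicate 1, 1 higher with library size alone and 1 lower with no filter on low counts. Without control replicate 2, 2 macrophage markers were upregulated. Of the dark cell markers, 4 were downregulated with DESeq2 and without IDPN-4wk replicate 2. Leaving out IDPN-4wk replicate 2 also gave 3 downregulated neuron markers, and leaving out control replicate 1 gave 4 downregulated supporting cell markers. The part of these cells in the changes of the transcription factor genes was not tested.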

How the data were processed

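RNA of pooled vestibular epithelium was amplified with a SMART-seq2 protocol that keeps no strand. Per the submitters' processing notes, the authors used STAR 2.5.3a and RSEM 1.3.0, and their methods name the rat build Rnor6.0. The deposited values are expected counts per gene, which were whole numbers and were not changed by rounding. RSEM shares reads among matching genes, so values of close paralogs are less certain.

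Low genes were removed by filterByExpr (at least 10 counts, at least 15 in total). After TMM scaling, edgeR 4.0.16 in R 4.3.3 was used for quasi-likelihood tests (glmQLFit and glmQLFTest), with Benjamini-Hochberg adjustment over all 14352 genes tested. Log2 CPM used a prior count of 2. DESeq2 1.42.0, limma-voom (limma 3.58.1), other scalings and filters, and leaving out each library were alternatives. Levels relative to other genes were compared with exact permutation tests. Replicates were numbered in accession order, and libraries of 1 group are separate animals. The floor of 3 counts covers counting error only, since reads had no molecular identifiers.

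The members and lists were chosen with earlier results of these data known. All members are named, and of other lists the called genes (at most the 4 with the smallest p), or else the gene with the smallest p, and the 3 genes most correlated with Atoh1 and with Pou4f3. Foxj1, Ift172 and Pecam1, like Insm1, had no row under their symbols and were not analysed here. Promoter windows are RefSeq's, of build GRCr8 and were matched by symbol. In the RefSeq annotation, Eya1 and Rfx3 overlap noncoding genes, none with a row in the table. 1 gene of the list of partners and cofactors is not reported here.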

Additional observations from a re-analysis of the deposited data

How the results depend on the processing

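Each library was a different rat and the labels name no pairs, so no paired analysis was made. The 3 calls among the 9 genes became 1 with a test against the 1.5-fold threshold itself (glmTreat, Lhx3 alone) and ranged from 1 to 3 when a library was left out, 1 without IDPN-4wk replicate 2. Over all genes, the 1394 calls became 2778 with Padj alone and 453 with glmTreat, and ranged from 1085 to 1581 when a library was left out. The 39 calls among the other listed genes became 59 and 21, with a range of 37 to 49. Of the 9 genes, 8 had groups that did not overlap relative to the HC function genes, 8 to 9 when a library was left out, 4 relative to Myo7a alone, 5 relative to HC function genes without those the study names, and 3 per count of Pou4f3, a measure chosen after seeing the data. Of all genes, 89.3% were higher and 1.22% lower without overlap relative to the HC function genes, 72.6% and 3.24% relative to Myo7a, 77.1% and 1.24% without the study's genes, and 68.8% and 4.26% per count of Pou4f3. The log2-Fold change of Gfi1 ran from -0.21 to 0.088 when a library was left out and turned in sign without IDPN-4wk replicate 1 (0.043), without control replicate 2 (0.088) and with library size alone (0.035), and relative to Myo7a the signs of Atoh1 (-0.24, against 0.29), Barhl1 (-0.060) and Isl1 (-0.036) turned. With library size alone the median log2-Fold change of all genes was 0.13, and 780 genes were called lower and 762 higher, against 950 and 444. With a mean count of at least 20, Ikzf2 was not tested. The cause of these shifts was not tested. Ikzf2, Atoh1 and Barhl1 rest on the fewest counts, and with 3 animals a group exact tests cannot go below p = 0.1.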
